A study of Homo sapiens with 6 samples.

Results

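The 10 genes described here are the suppressor of cytokine signaling genes *SOCS1* to *SOCS6*, the related gene *CISH*, and the PIM kinase genes *PIM1*, *PIM2* and *PIM3*. They were chosen by symbol, with earlier results of these data known, from 29744 genes listed in an RNA-seq data set of LNCaP, a human prostate cancer line that responds to androgen. The cells were grown in RPMI-1640 medium with fetal bovine serum and given 250 nM CDKI-73 or its vehicle, DMSO, for 4 h, with 3 biological replicates in each group. CDKI-73 inhibits CDK9, the kinase that releases paused RNA polymerase II into elongation, and the comparison asks which mRNAs differ after 4 h of that inhibitor. According to the study that reported these data, the compound acts on CDK1, CDK2 and CDK7 too, though less strongly in vitro. Which kinase lies behind each change was not tested. DMSO samples carry CDKI-73 in their titles too, so which group is the vehicle, and with it each direction below, was read from the treatment label. All samples are of a single cell line at a single dose and time.

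Cytokines and growth hormone activate receptor-bound JAK kinases, which phosphorylate STAT transcription factors, and active STAT factors enter the nucleus and switch on target genes. *CISH* and some of the SOCS genes are among these targets. Proteins of this family act back on receptor complexes through an SH2 domain that binds phosphotyrosine and a SOCS box that recruits elongins and a cullin ubiquitin ligase. PIM proteins are serine/threonine kinases that need no activating phosphorylation by an upstream kinase, so their activity follows their amount, and *PIM1* is a classic STAT target with a short-lived mRNA and protein. PIM kinases promote survival and cell cycle progression and have been linked to prostate cancer together with MYC.

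All of the 8 members with enough reads to test were lower with CDKI-73, by between 2.42-fold for *SOCS5* and 10.7-fold for *CISH* on the log2(CPM + 0.1) scale. Of all tested genes, 48.2% were lower by limma at an adjusted p of 0.05, and 22.3% were lower by at least 2-fold. *CISH* met the filter on low values only through its DMSO level, so it adds no support to the count. The value for *CISH* rests on 0 to 3 reads per CDKI-73 sample and ran from −5.24 to −1.19 on the log2 scale as the pseudocount was set to 0.01 or 1 CPM. *CISH*, *PIM1* and *PIM3* kept the smallest share of their DMSO level (2.92% to 9.94%), *SOCS6* and *PIM2* kept 17.9% and 21.7%, and *SOCS2*, *SOCS4* and *SOCS5* kept 35.8% to 41.0%. *SOCS1* and *SOCS3* were almost silent in these cells, with at most 8 reads in any sample, and were not tested. Among the STAT genes 3 of 6 tested were slightly higher and 0 were lower by limma (0 by voom in limma and 0 at an unadjusted p under 0.05), although 4 were lower once samples were scaled to reference genes.

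The promoters of *CISH* and *PIM1*, the members that kept the smallest shares, are shown because both genes are known STAT targets and their upstream sequences differ in the motif that STAT dimers bind. Each is the 250 bases before the RefSeq start site (GRCh38.p14), 5′ to 3′ on the strand of the gene, at chr3:50611775-50612024 (minus strand) for *CISH* and chr6:37169902-37170151 (plus strand) for *PIM1*. Capitals mark each match to TTCNNNGAA, the gamma-activated site.
CISH: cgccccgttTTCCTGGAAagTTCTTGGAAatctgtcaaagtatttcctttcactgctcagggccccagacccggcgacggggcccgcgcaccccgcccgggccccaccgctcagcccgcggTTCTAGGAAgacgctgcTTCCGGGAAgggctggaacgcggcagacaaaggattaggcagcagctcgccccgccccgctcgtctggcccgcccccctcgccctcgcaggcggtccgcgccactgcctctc
PIM1: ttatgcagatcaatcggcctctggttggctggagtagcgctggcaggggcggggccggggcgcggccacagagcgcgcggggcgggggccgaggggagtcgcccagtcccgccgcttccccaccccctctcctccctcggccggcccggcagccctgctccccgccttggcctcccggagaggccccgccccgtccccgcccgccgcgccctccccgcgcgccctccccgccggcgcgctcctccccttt
The *CISH* sequence holds 4 matches, which begin 241, 230, 129 and 112 bases before the start site, and the *PIM1* sequence holds 0. Sequence farther upstream was not searched for either gene.

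Values are CPM, the reads of a gene scaled to the counted reads of its sample. The reads behind them were inferred from the step between values, at 46.1 to 60.9 M counted reads per sample, so 1 read is worth 0.0164 to 0.0217 CPM. CDKI-73 replicate 3 stood furthest from its group, with a median absolute log2 difference over tested genes of 0.148 and 0.159 from the other replicates, against 0.061 to 0.093 for other pairs within a group. LNCaP markers were abundant, with all 12 tested and a summed level of 9192 to 9494 CPM in DMSO and 7738 to 7968 CPM with CDKI-73, and 7 were lower and 4 higher by limma (3 and 4 with scaling to the upper quartile, 10 and 0 with scaling to the reference genes *GAPDH*, *HPRT1* and *ACTB*). Immune markers summed to 5.72 to 6.53 CPM in DMSO and 7.69 to 8.74 CPM with CDKI-73, with 15 of 16 in the table, *CD68* the largest at 5.10 and 6.66 CPM, *CD3E*, *MS4A1* and *NKG7* at 0 in all samples, and *PTPRC* at a mean of 0.0200 CPM in DMSO and 0 with CDKI-73. Stromal and endothelial markers (12 in the table) summed to 26.53 to 28.09 CPM in DMSO and 32.37 to 36.91 CPM with CDKI-73. *VWF* and *COL1A1* were the largest in DMSO, at 10.1 and 9.86 CPM, and *COL1A2* was at 0 in all samples. Of 5 tested, *COL1A1* and *ACTA2* were higher by limma (log2 fold change 0.47 and 0.79) and 0 were lower. With scaling to the reference genes the split was 1 lower and 1 higher. Both sums were higher with CDKI-73, and their part in the results was not tested.

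Genes were tested with limma on log2(CPM + 0.1) where the mean CPM over the 6 samples was at least 0.5, which left 13373 genes, and p was adjusted over all of them by the Benjamini-Hochberg method. The p-values judge the difference between groups against the spread between these replicates, moderated over all tested genes. By limma, 8 of 8 tested members passed an adjusted p of 0.05 and were lower, against 48.2% of all tested genes. *CISH* met the filter only through its DMSO level, so it adds no support to the counts and median of this paragraph. With the filter at a mean CPM of at least 2, which *CISH* did not meet, 7 members were lower, against 5799 of 11512 genes tested. All 7 were lower by at least 2-fold, a share that was not counted over all genes at that filter. *PIM1*, at 7.04 CPM in DMSO and 0.630 CPM with CDKI-73, met that filter only through DMSO and adds no support to this count. The count of higher members was 0 by limma, 0 at an unadjusted p under 0.05 and 0 by voom in limma, against 24.2% higher among all tested genes. All 8 were lower by at least 2-fold, against 22.3% of all tested genes, and in all 8 the highest CDKI-73 value was below the lowest DMSO value, as it was for 50.0% of all tested genes. The median log2 fold change was −2.32 over the tested members and −0.18 over all tested genes. CPM is a share of counted reads, so the amount of RNA per cell was not measured, and in bulk samples less RNA per cell and fewer cells of a type cannot be told apart.

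**Figure D1:**
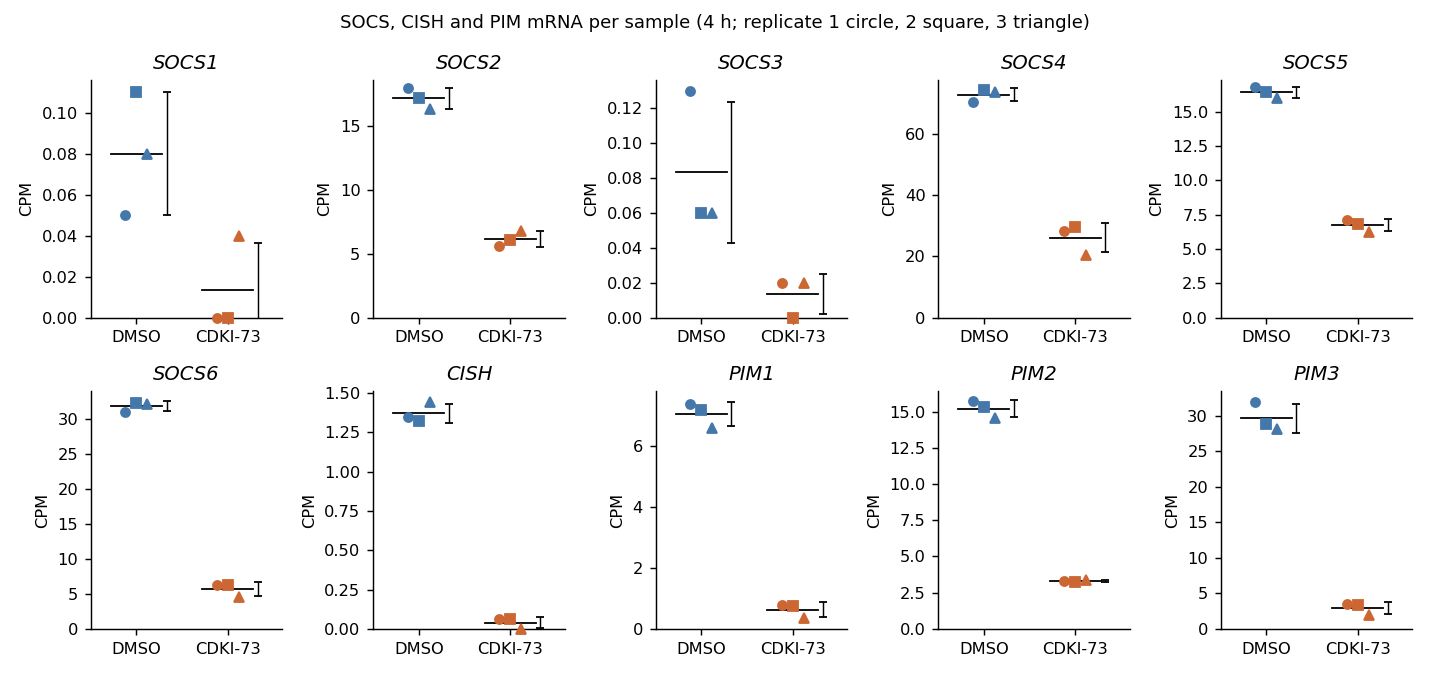
CPM of each of the 10 genes in each sample (blue, DMSO; orange, CDKI-73; circle, square and triangle for replicates 1, 2 and 3), with the mean as a line and the SD as a bar that ends at 0 where it would pass below it. In the 8 tested genes the groups do not overlap, while *SOCS1* and *SOCS3* never exceed 0.13 CPM.

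*CISH*, which lies on chromosome 3 (hg38, 50606489 to 50611774, minus strand), encodes an SH2 protein induced by STAT5 that restrains signaling from cytokine receptors. Its levels were 1.35, 1.32 and 1.44 CPM in DMSO replicates 1, 2 and 3 and 0.06, 0.06 and 0.00 CPM with CDKI-73. DMSO samples were tight, and the CDKI-73 samples sat at the limit of detection, with 82, 72 and 76 reads against 3, 3 and 0. The log2 fold change was −3.42 (SE 0.22, adjusted p = 2.2e-06 by limma), which places *CISH* at the 1.33 percentile of all tested genes counted from the lowest. *CISH* passed the filter on low values only through the DMSO group, so a lower value was a condition of its being tested. On summed reads (230 and 6) the share left was 2.93%, with an exact 95% interval of 1.06 to 6.47% that covers counting error only. At pseudocounts of 0.01 and 1 CPM the log2 fold change was −5.24 and −1.19, so its size depends on the pseudocount. Without CDKI-73 replicate 3 the share of the DMSO mean was 4.38% in place of 2.92%. The gene overlaps *MAPKAPK3* on the opposite strand, which had 67.01 to 70.37 CPM in DMSO and 81.75 to 88.9 CPM with CDKI-73.

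*PIM1* (chromosome 6, 37170152 to 37175428, plus strand) had 7.37, 7.16 and 6.60 CPM in DMSO and 0.79, 0.75 and 0.35 CPM with CDKI-73. The CDKI-73 samples rested on 41, 39 and 16 reads, and replicate 3 was the lowest. The log2 fold change was −3.35 (SE 0.25, adjusted p = 4.6e-06 by limma), or 10.2-fold lower, and 8.94% ± 3.45 (SD, n = 3) of the DMSO mean was left. With a pseudocount of 1 CPM the log2 fold change was −2.31. *PIM3* (chromosome 22, 49960768 to 49964072, plus strand), the PIM gene with the highest level per length, had 31.97, 28.80 and 28.18 CPM in DMSO and 3.56, 3.37 and 1.91 CPM with CDKI-73. It fell by 3.33 on the log2 scale (SE 0.21, adjusted p = 1.8e-06 by limma), close to *PIM1*, and again replicate 3 was the lowest sample. *PIM2* (chromosome X, 48913182 to 48919024, minus strand), a kinase gene best known from blood cell tumors, had 15.74, 15.29 and 14.56 CPM in DMSO and 3.29, 3.22 and 3.39 CPM with CDKI-73. The *PIM2* samples with CDKI-73 were the tightest of all members relative to their level, and replicate 3 was not low. Its log2 fold change of −2.17 (SE 0.07, adjusted p = 7.3e-08 by limma) had a 95% interval of −2.33 to −2.0, which does not reach those of *PIM1* (−3.92 to −2.79) or *PIM3* (−3.82 to −2.85), although the difference between genes was not tested.

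*SOCS6* (chromosome 18, 70289045 to 70330199, plus strand), which has been tied to insulin receptor and KIT signaling, fell furthest among the tested SOCS genes other than *CISH*. It had 31.01, 32.38 and 32.21 CPM in DMSO and 6.31, 6.30 and 4.51 CPM with CDKI-73. The log2 fold change was −2.48 (SE 0.13, adjusted p = 5.3e-07 by limma), with a 95% interval of −2.77 to −2.19 that lies below those of *SOCS2*, *SOCS4* and *SOCS5*.

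*SOCS2*, *SOCS4* and *SOCS5* formed the group with the smallest falls. *SOCS2* (chromosome 12, 93569814 to 93583487, plus strand) limits growth hormone receptor signaling and is an androgen-responsive gene in prostate cells. Its levels were 17.9, 17.2 and 16.3 CPM in DMSO and 5.58, 6.09 and 6.75 CPM with CDKI-73, and the log2 fold change was −1.47 (SE 0.09, adjusted p = 1.2e-06 by limma). In contrast to most members, CDKI-73 replicate 3 was the highest of its group here. *SOCS4* (chromosome 14, 55027230 to 55049489, plus strand) had 70.30, 74.32 and 73.70 CPM in DMSO and 28.21, 29.52 and 20.57 CPM with CDKI-73. Its CDKI-73 samples were spread more widely than those of *SOCS2*, and the log2 fold change was −1.49 (SE 0.12, adjusted p = 1.1e-05 by limma). *SOCS5* (chromosome 2, 46698952 to 46780245, plus strand), which like *SOCS4* has been linked to turnover of the EGF receptor, had 16.82, 16.43 and 16.04 CPM in DMSO and 7.10, 6.86 and 6.23 CPM with CDKI-73. It changed least of the tested members, with a log2 fold change of −1.28 (SE 0.07, adjusted p = 1.0e-06 by limma). The 95% intervals of these 3 genes overlap, at −1.67 to −1.27, −1.78 to −1.21 and −1.44 to −1.11. They sit at the 14.1, 13.8 and 17.1 percentile of all tested genes from the lowest, against 1.33 to 6.83 for the other 5.

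*SOCS1* (chromosome 16, 11254417 to 11256204, minus strand) and *SOCS3* (chromosome 17, 78356778 to 78360077, minus strand) encode the SOCS proteins that can inhibit JAK kinases directly, and both are strongly induced by cytokines in many cells. *SOCS1* had 3, 6 and 4 reads in DMSO and 0, 0 and 2 with CDKI-73. *SOCS3* had 8, 3 and 3 reads in DMSO and 1, 0 and 1 with CDKI-73. Reads were fewer with CDKI-73 in every sample, yet the exact 95% interval of the share left, from summed reads, was 1.89 to 76.3% for *SOCS1* and 1.77 to 69.8% for *SOCS3*, so its size was not resolved at this depth. With no filter on low values, limma gave a log2 fold change of −0.67 (adjusted p = 0.018) for *SOCS1* and −0.68 (adjusted p = 0.014) for *SOCS3*. Both values are shrunk by the pseudocount of 0.1 CPM, which exceeds the DMSO means of 0.0800 and 0.0833 CPM. On mean CPM, 16.7% and 16.0% of the DMSO level was left. *SOCS2* overlaps *SOCS2-AS1* on the opposite strand, at no more than 0.43 CPM in any sample. *SOCS1* overlaps *RMI2* on the opposite strand, which had 23.49 to 25.82 CPM in DMSO and 7.63 to 8.98 CPM with CDKI-73. The strand that was counted is not given in the sources used here.

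**Figure D2:**
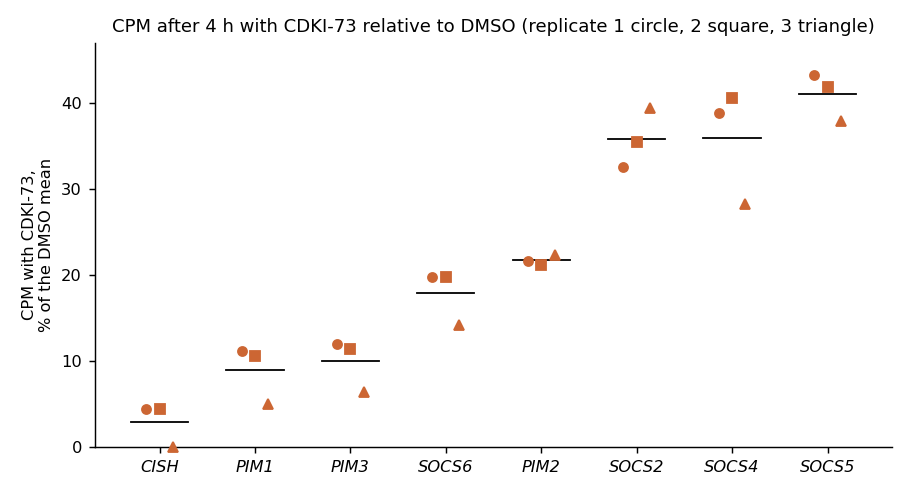
CPM of each CDKI-73 sample as a percent of the DMSO mean for the 8 tested genes, ordered by the mean (line; circle, square and triangle for replicates 1, 2 and 3). *CISH*, *PIM1* and *PIM3* lie at or below 12%, and replicate 3 is the lowest sample of 6 genes and the highest of *SOCS2* and *PIM2*.

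Among the replicates, CDKI-73 replicate 3 was lowest for *SOCS4*, *SOCS5*, *SOCS6*, *CISH*, *PIM1* and *PIM3* and highest for *SOCS2* and *PIM2*. Its share of the DMSO mean was 4.97% for *PIM1* and 6.44% for *PIM3*, while the means without it were 10.9% and 11.7%. For *SOCS4* and *SOCS6* the share in replicate 3 was 28.3% and 14.2%, against means of 39.7% and 19.8% without it. Leaving out any sample moved no fold change by more than 1.24 times, and all 8 remained lower.

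Levels of different genes can be set side by side only per length of transcript. In DMSO, *PIM3* was highest at 14.1 ± 0.967 CPM per kb (SD, n = 3), followed by *SOCS4* at 10.5 ± 0.314, *PIM2* at 7.32 ± 0.287, *SOCS2* at 7.19 ± 0.344, *SOCS6* at 5.59 ± 0.131, *SOCS5* at 3.45 ± 0.0818, *PIM1* at 2.61 ± 0.147 and *CISH* at 0.679 ± 0.0309 CPM per kb. Only the neighbours *PIM2* and *SOCS2*, and *SOCS1* and *SOCS3* at the bottom, overlapped between samples in that order. With CDKI-73 the order was different, with *SOCS4* highest at 3.78 ± 0.70 CPM per kb, *SOCS2* next at 2.57 ± 0.246 and *PIM2* after it at 1.59 ± 0.0412. *PIM3* was down to 1.40 ± 0.429 CPM per kb, where its samples overlapped those of *PIM2*, *SOCS5* (1.41 ± 0.0943) and *SOCS6* (1.0 ± 0.182). The lengths are those of the canonical GENCODE transcripts, and the transcripts used by LNCaP cells were not measured.

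The genes themselves differ in build. All 3 PIM genes have 6 coding exons within 3305 to 5843 bases, and *CISH* has 3 coding exons within 5286 bases. *SOCS4*, *SOCS5* and *SOCS6* have 1 coding exon each but span 22260, 81294 and 41155 bases, and *SOCS2* has 2 coding exons within 13674 bases. Thus the 3 members with the smallest share left lie within 5286 bases, although *PIM2* at 5843 bases kept 21.7% and *SOCS6* at 41155 bases kept 17.9%, over 8 genes and with no test.

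**Figure D3:**
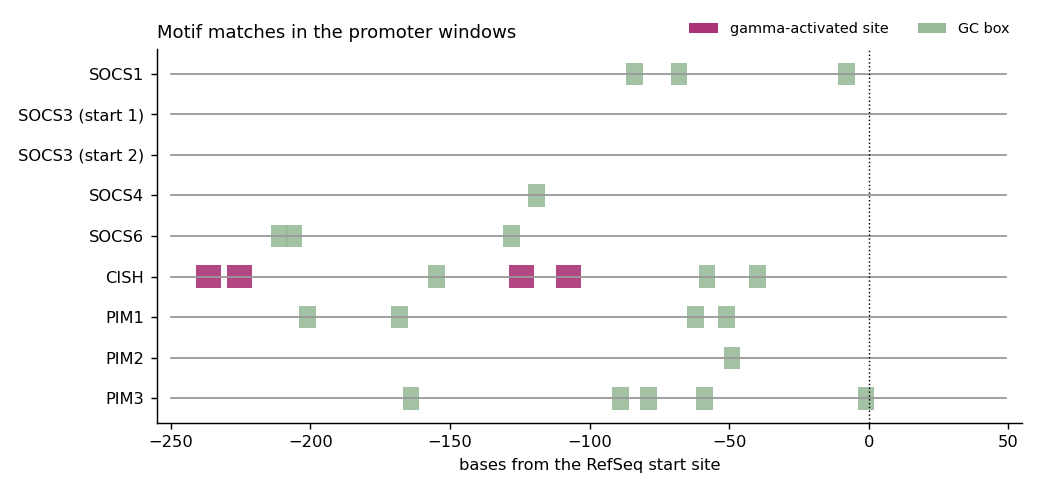
Matches to the gamma-activated site TTCNNNGAA (purple) and the GC box GGGCGG (green), on both strands, in the window from 250 bases before to 50 bases after each RefSeq start site, against distance from the start. *CISH* alone holds gamma-activated sites, 4 of them, while GC boxes are in every gene shown but *SOCS3*.

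RefSeq promoter windows (250 bases before to 50 bases after the start site, GRCh38.p14) were found for 8 members in 9 entries, 2 of them for *SOCS3*, and not for *SOCS2* and *SOCS5*. The gamma-activated site TTCNNNGAA, searched on both strands, was in the *CISH* window and in none of the other 8 entries. At least 1 match was held by 7.7% of all 35116 promoters and by 6.2% of those of tested genes, and 4 or more by 7 promoters in all (0.0199%). The *CISH* matches seen above fall into 2 pairs, at 241 and 230 and at 129 and 112 bases before the start site. The GC box GGGCGG, a letter string that SP1 binds, was counted on both strands at 5 in *PIM3*, 4 in *PIM1*, 3 each in *SOCS1*, *SOCS6* and *CISH*, 1 each in *SOCS4* and *PIM2* and 0 in *SOCS3*, with at least 1 in 45.0% of all promoters and in 65.9% of those of tested genes. TATAA and TGACGTCA (the cyclic AMP response element) were in 0 of the 9 entries, against 20.4% and 1.8% of all promoters and 11.5% and 2.8% of those of tested genes. GC content was 81.3% for *PIM3* and *SOCS6*, 79.7% for *PIM1*, 74.0% for *SOCS1* and 70.3% for *CISH* and *SOCS4*, above the median of 64.7% over promoters of tested genes, while *PIM2* at 62.3% was below it and the 2 *SOCS3* entries, at 64.0% and 70.7%, lay on either side. A match is a description of letters and not a measured binding site.

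The receptors, kinases and factors upstream of the members were measured in the same cells. Among JAK genes, *JAK2*, the kinase of growth hormone and erythropoietin receptors, had 43.78, 47.06 and 46.83 CPM in DMSO and 25.98, 28.23 and 23.35 CPM with CDKI-73 and was lower, with a log2 fold change of −0.83 (SE 0.08, adjusted p = 1.8e-05 by limma). *JAK1* was lower at −0.71 (SE 0.19, adjusted p = 0.0086 by limma), a call that was lost at −0.44 when samples were scaled to the upper quartile, and *JAK3*, at mean levels of 0.337 and 0.143 CPM, was not tested. *TYK2* was higher at 0.32 (SE 0.05, adjusted p = 5.4e-04 by limma) and turned to −0.09 when samples were scaled to the reference genes.

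STAT genes moved little. *STAT3*, the main factor downstream of IL-6, had 218.03, 215.79 and 231.01 CPM in DMSO and 255.37, 255.1 and 231.58 CPM with CDKI-73, a log2 fold change of 0.16 (adjusted p = 0.028 by limma). *STAT5B*, the factor that drives *CISH* in many cells, was at 0.19 (adjusted p = 0.0068) and *STAT2* at 0.30 (adjusted p = 0.0013), both higher by limma. *STAT5A* (−0.36) and *STAT6* (0.19) did not pass the test, and *STAT4* was listed at 0 in every sample. These directions depend on the scale, since with scaling to the reference genes 4 of the 6 tested were lower and *STAT2*, *STAT3*, *STAT5B* and *STAT6* stood at −0.11, −0.25, −0.22 and −0.16. All 8 tested members stayed lower by at least 2-fold on each of the scales tried.

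**Figure D4:**
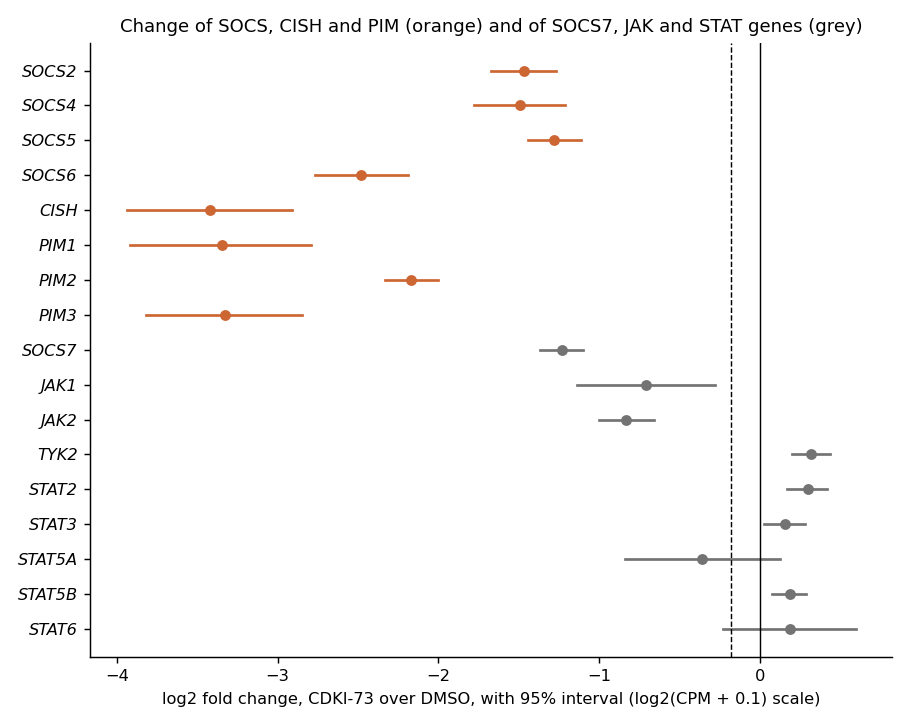
Log2 fold change of CDKI-73 over DMSO on the log2(CPM + 0.1) scale with its 95% interval from limma for the 8 tested members (orange) and for *SOCS7* and JAK and STAT genes (grey). A dashed line marks the median over all tested genes at −0.18, and the intervals of all 8 members lie below −1.

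*SOCS7*, a SOCS gene outside the 10, had 47.42, 47.61 and 47.09 CPM in DMSO and 20.57, 21.12 and 18.77 CPM with CDKI-73, a log2 fold change of −1.23 (SE 0.06, adjusted p = 3.6e-07 by limma), near that of *SOCS5*. It belongs to the list of other JAK-STAT inhibitors, of which 11 of 15 tested genes were lower and 0 higher by limma (0 at an unadjusted p under 0.05 and 0 by voom in limma), with a median log2 fold change of −0.84. Over all tested genes 48.2% were lower and 24.2% higher by limma. With other scalings the split was 10 lower and 3 higher (upper quartile) or 15 lower and 0 higher (reference genes). *PIAS1*, an inhibitor of active STAT factors, fell from 61.7 to 16.4 CPM (−1.91), and the ubiquitin ligase gene *CBLB* and the adaptor gene *SH2B3*, which restrains JAK2, fell as well (−1.20 and −1.16). In a list of SOCS box ligase partners, by contrast, 2 of 11 tested genes were lower and 6 higher, with a median of 0.16. Besides elongin and cullin genes, that list holds accessory genes such as *NEDD8*, *UBE2M* and *ARIH2*, so its counts are not limited to proteins the SOCS box recruits. *CUL2* (−0.56) and *DCUN1D1* (−0.80), which aids cullin neddylation, fell, while *TCEB2* (elongin B) and *NEDD8* rose by 0.53 and 0.47 on the log2 scale. With scaling to the reference genes, 7 genes of this list were lower and 0 higher.

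Of 19 tested cytokine receptor genes 13 were lower and 3 higher by limma, with a median log2 fold change of −0.48, where 48.2% of all tested genes were lower and 24.2% higher. The split was 10 lower and 4 higher (median −0.20) with scaling to the upper quartile and 16 lower and 0 higher with scaling to the reference genes. *IL6R* fell from 48.4 to 11.3 CPM (−2.09), *EPOR* from 6.55 to 1.76 CPM (−1.85), *IL4R* from 5.81 to 2.05 CPM (−1.46) and *LIFR* from 78.4 to 31.3 CPM (−1.32). Of 21 cytokine ligand genes only 2 had enough reads to test, and they moved in opposite directions. *LIF*, a ligand of the receptor that *LIFR* encodes, had 2.89, 3.19 and 3.04 CPM in DMSO and 0.83, 0.71 and 0.39 CPM with CDKI-73 (−2.13, adjusted p = 4.9e-05 by limma), whereas *IL11*, of the same family, had 0.74, 0.70 and 0.76 CPM and then 1.89, 1.93 and 2.34 CPM (1.36, adjusted p = 2.4e-05 by limma).

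In a list of STAT target genes that holds none of the members, 17 of 25 tested genes were lower and 3 higher. The median was −0.66, and the shares over all tested genes were the same 48.2% and 24.2%. With scaling to the upper quartile 15 were lower and 8 higher, and with scaling to the reference genes 22 and 2. The transcription factor genes *CEBPD* (8.74 to 0.307 CPM, −4.45), *TWIST1* (15.2 to 0.690 CPM, −4.28) and *CEBPB* (26.8 to 2.24 CPM, −3.54) fell strongly, and *MCL1*, which encodes a short-lived survival protein, fell from 323.6 to 48.6 CPM (−2.80). Like *CISH*, *CEBPD* passed the filter on low values only through the DMSO group, so a lower value was a condition of its being tested. Genes for PIM substrates and effectors were divided, with 12 of 24 lower and 7 higher and a median of −0.16 that became positive under 3 of the other scalings (0.03 to 0.11), among them the median of gene ratios with 9 lower and 10 higher. The cell cycle phosphatase gene *CDC25A* fell from 50.0 to 3.72 CPM (−3.72), and *FOXO1*, *CDKN1B* and *FOXO3*, whose products PIM kinases restrain, fell too (−2.89, −2.65 and −2.24). In insulin and IGF1 signaling, which several SOCS proteins damp, 12 of 19 tested genes were lower and 4 higher (16 and 0 with scaling to the reference genes), with a median of −0.74, and *PIK3R1* (127.6 to 7.75 CPM, −4.07), *IRS2* (−3.75), *IRS1* (−1.85) and *SOS1* (−1.43) led the falls.

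**Figure D5:**
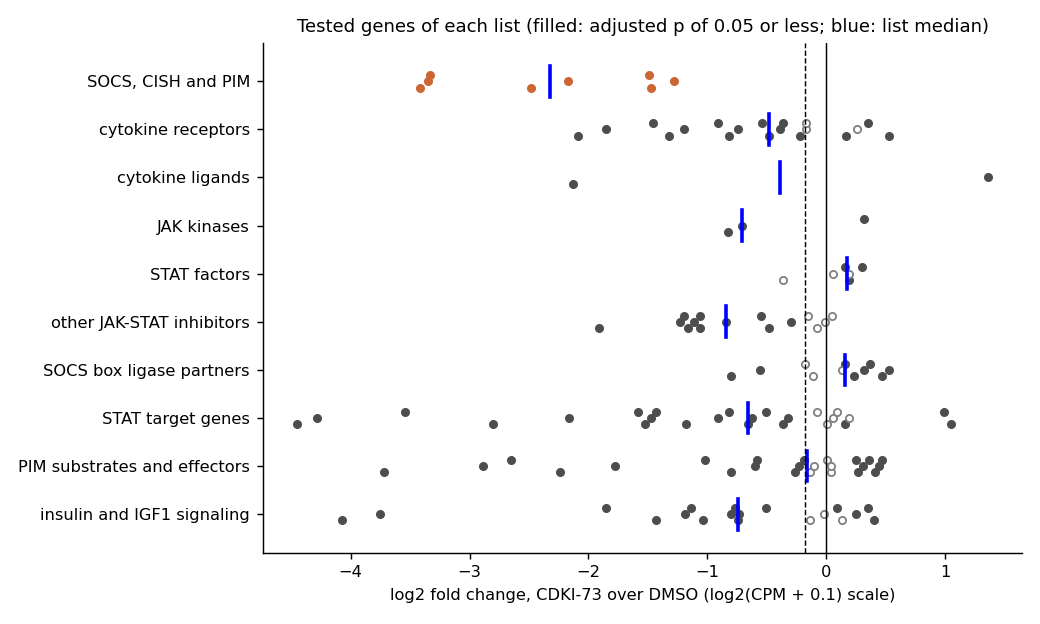
Log2 fold change (log2(CPM + 0.1) scale) of each tested gene of the 10 SOCS, *CISH* and PIM genes (orange) and of 9 pathway lists (dark), filled where the adjusted p by limma is 0.05 or less, with the list median in blue. The median over all tested genes, −0.18, is dashed, and the list medians run from −0.84 to 0.17 against −2.32 for the members.

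Counted once each, the 157 genes of the 9 lists included 121 tested, of which 69 were lower (57.0%) and 27 higher (22.3%) by limma, with a median log2 fold change of −0.48, against 48.2% and 24.2% and a median of −0.18 over all tested genes. Lower by at least 2-fold were 36, and 2 were higher by that much. The share of lower among called pathway genes was 71.9% as deposited, 57.7% with scaling to the upper quartile and 97.0% with scaling to the reference genes, and among all called genes 66.5%, 46.0% and 96.2%. Those scalings shifted the median of all tested genes by 0.28 and −0.41 on the log2 scale.

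The tested genes whose pattern over the 6 samples was closest to a member, by Euclidean distance of centred log2(CPM + 0.1) values, were found for the members with the largest and smallest change. For *CISH*, whose centred values with CDKI-73 are set largely by the pseudocount of 0.1 CPM, they were *ZNF610* (0.14), *WEE1* (0.16), the kinase gene that holds cells before mitosis, and *KBTBD6* (0.17), and these genes kept 8.64% to 9.58% of their DMSO mean against 2.92% for *CISH*. For *SOCS5* they were *ZNF565* (0.05), the androgen-regulated protease gene *TMPRSS2* (0.06) and *HIAT1* (0.07).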

How the data were processed

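PolyA+ RNA of 6 LNCaP samples was read single-end from stranded libraries. The authors mapped reads to hg38 with STAR, counted them per gene and deposited CPM rounded to 2 decimals. The authors also ran FastQC and edgeR 3.3 in R 3.2.3, per the submitters' processing notes. Neither the annotation nor the counted strand is given in the sources used here. Counted reads per sample were inferred from the step of the CPM (99.98% to 100.0% of values were whole reads within the rounding of the CPM, against 46.1% to 60.9% for arbitrary values).

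From the CPM, log2(CPM + 0.1) was tested with limma 3.58.1 in R 4.3.3 (trend, no block or covariate, two-sided), for genes averaging 0.5 CPM or more, with Benjamini-Hochberg adjustment over all of them. The fit was tested on simulated data. Coordinates and lengths are from GENCODE (hg38), promoters from RefSeq. Tables and plots used Python 3.11.15, pandas 2.3.3 and matplotlib 3.10.9. Members and gene lists were chosen with earlier results of these data known. Named genes were all members, *SOCS7*, JAK and STAT genes (some are not reported here), the most changed genes of each list that passed (up to 4), and the 3 genes closest to the most and least changed member. The overlapping genes of members were added. A few list genes belong to several lists. Alternatives were other pseudocounts, filters, scalings and limma settings, voom, a replicate block and each sample left out.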

Additional observations from a re-analysis of the deposited data

How the results depend on the processing

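The 8 tested members were refitted under 18 settings, which gave 143 values because *CISH* was below the filter at a mean CPM of at least 2. All 143 kept the direction and an adjusted p under 0.05 by limma, the largest being 2.3e-04 for *CISH*. Over these settings the log2 fold change ran from −5.24 to −1.19 for *CISH*, −3.72 to −2.31 for *PIM1*, −3.73 to −2.98 for *PIM3*, −2.57 to −1.90 for *PIM2*, −2.88 to −2.20 for *SOCS6*, −1.87 to −1.20 for *SOCS2*, −1.90 to −1.22 for *SOCS4* and −1.68 to −1.0 for *SOCS5*. With no filter, 10 members were lower, among them *SOCS1* and *SOCS3* at mean levels below the pseudocount, against 7026 of 22141 genes tested. Counts over all genes moved with the scaling by its own construction. With scaling to the reference genes 9882 genes were lower and 395 higher, and genes higher numbered 5760, 5122 and 5082 with the upper quartile, the median of gene ratios and the trimmed mean of M-values. Pathway genes higher numbered 44 with the upper quartile and 3 with the reference genes. Same-numbered samples did not deviate together (correlations of −0.29, 0.11 and −0.23), so replicate numbers were not taken as pairs. With the replicate block 8 members were lower, as were 6159 of all genes, with 2776 higher, and 68 pathway genes were lower and 23 higher. The depth limits *SOCS1*, *SOCS3* and *CISH* with CDKI-73, where a few reads carry each value.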
